A study of Mus musculus with 9 samples.

Results

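Cell cycle and DNA replication genes were followed in mouse liver as a set of 40 genes, chosen by name: replication licensing and helicase factors, DNA synthesis enzymes, nucleotide suppliers, cyclins and their kinases, mitotic proteins and transcription factors. All 40 were among the 18148 symbols of the table, and 24 reached a value of 1 in at least 3 of the 9 libraries. Each group had 3 libraries of liver from C57BL/6J mice gavaged for 8 weeks. Control mice received distilled water. DEHP mice received di(2-ethylhexyl) phthalate, a plasticizer, at 1500 mg/kg/d in corn oil. Treatment mice received the same phthalate and oil with 70 mg/kg green tea polyphenols (GTP). The design also held corn oil and GTP groups that were not analysed here, so in these comparisons the phthalate and its oil cannot be told apart.

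A dividing cell first licenses its origins of replication with the ring of MCM proteins, loaded by Cdc6 and Cdt1, then fires them in S phase with the CMG helicase, primase, polymerases and the sliding clamp Pcna. Cyclins D and E with Cdk4, Cdk6 and Cdk2 drive entry into S phase through E2F factors, and cyclins A and B with Cdk1 drive mitosis under Foxm1. Adult hepatocytes are mostly quiescent and re-enter the cycle after loss of liver mass or under some mitogens. Ligands of the nuclear receptor PPARA, phthalate metabolites among them, are known in rodents as such mitogens.

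Promoter sequences are shown for the 3 members that passed the test in a comparison, Rrm2, Ccne1 and Rfc4, and for Mcm6 and Top2a, which carry known cell cycle motifs. They are the 250 bases before the RefSeq start in GRCm38.p6, 5′ to 3′ on the gene's strand; the expression table itself has no coordinates. Capitals mark matches on either strand to the E2F letters (TTTCCCGC, TTTCGCGC, TTTGCCGC or TTTGGCGC), the CCAAT box (CCAAT), the CHR element of mitotic genes (TTTGAA or TTCGAA), the E-box (CACGTG) and DR1, the repeat bound by PPARA (AGGTCA, any 1 base, AGGTCA).
Rrm2, chr12:24708004-24708253, plus strand: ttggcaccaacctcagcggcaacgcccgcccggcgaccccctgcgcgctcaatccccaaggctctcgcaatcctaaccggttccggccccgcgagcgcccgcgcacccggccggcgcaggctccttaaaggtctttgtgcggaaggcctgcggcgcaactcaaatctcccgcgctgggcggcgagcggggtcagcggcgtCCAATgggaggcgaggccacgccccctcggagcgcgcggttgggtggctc
Ccne1, chr7:38107491-38107740, minus strand: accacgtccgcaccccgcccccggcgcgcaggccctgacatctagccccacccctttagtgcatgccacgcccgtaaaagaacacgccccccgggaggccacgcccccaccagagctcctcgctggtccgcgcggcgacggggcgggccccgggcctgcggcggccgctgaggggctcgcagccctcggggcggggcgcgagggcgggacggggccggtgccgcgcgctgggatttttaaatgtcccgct
Rfc4, chr16:23127731-23127980, minus strand: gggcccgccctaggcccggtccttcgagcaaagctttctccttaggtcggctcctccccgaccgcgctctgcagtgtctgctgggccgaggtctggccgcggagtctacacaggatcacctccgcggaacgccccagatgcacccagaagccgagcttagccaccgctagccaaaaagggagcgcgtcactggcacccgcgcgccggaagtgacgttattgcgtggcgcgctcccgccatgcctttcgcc
Mcm6, chr1:128359706-128359955, minus strand: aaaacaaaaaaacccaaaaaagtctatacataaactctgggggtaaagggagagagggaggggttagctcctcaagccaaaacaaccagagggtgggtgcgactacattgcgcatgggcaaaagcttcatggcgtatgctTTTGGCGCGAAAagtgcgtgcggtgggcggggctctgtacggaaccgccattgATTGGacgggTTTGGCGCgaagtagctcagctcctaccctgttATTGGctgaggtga
Top2a, chr11:99024190-99024439, minus strand: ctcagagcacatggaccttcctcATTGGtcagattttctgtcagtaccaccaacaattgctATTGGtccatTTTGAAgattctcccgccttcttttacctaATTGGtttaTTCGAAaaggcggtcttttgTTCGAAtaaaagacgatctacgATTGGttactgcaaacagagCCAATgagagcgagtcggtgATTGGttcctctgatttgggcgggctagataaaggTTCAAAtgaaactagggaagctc

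The table of promoters matched 31 of the 40 members; Mcm4, Gins1, Ccna2, Ccnd1, Ccnd2, Ccne2, Aurkb, Myc and Foxm1 had no entry. E2F letters stood before 7 of the 31 (22.6%), against 1.91% of 27025 promoters of the same length. The CCAAT box stood before 20 (64.5%) against 34.5%, the CHR element before 7 (22.6%) against 17.4%, the E-box before 3 (9.68%) against 6.05%, and the PPARA repeat before 0 against 0.037%. These exact PPARA letters stood before only 10 of the 27025 promoters, too few for their absence from 31 to be informative. Mcm6 held 3 E2F matches, a pair of them overlapping each other, and 2 CCAAT boxes. Top2a held 6 CCAAT boxes and 4 CHR elements. Rrm2 held 1 CCAAT box, and none of these letters stood in the windows of Ccne1 and Rfc4.

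Levels were low for most of the set, and 6 of its 8 mitotic genes stayed below 1 in every library. The other two, Birc5 and Aurka, averaged 1.15 and 0.958. The deposited signal is of the FPKM or TPM kind, which is scaled for transcript length, although which of these is not stated. On that scale 4 members averaged over 20, 9 averaged between 2 and 20, and 27 averaged below 2. Mki67, the standard marker of cycling cells, lay between 0.07 and 0.18 in all 9 libraries. Bub1, a spindle checkpoint kinase, lay between 0 and 0.03, and 0.01 is the rounding step of the table. Foxm1, the activator of mitotic genes, lay between 0.08 and 0.17. The 16 members that did not reach the filter were Mcm5, Cdc6, Pola1, Ccna2, Ccnb1, Ccnb2, Ccnd2, Ccne2, Cdk1, Mki67, Top2a, Cdc20, Aurkb, Bub1, Plk1 and Foxm1. They were not tested and are given by their values.

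The highest members were Ccnd3, Cdk4, Tk1 and Pcna. Ccnd3, a D-type cyclin, was at 26.02 ± 6.75 in Control, 30.1 ± 4.04 in DEHP and 27.3 ± 3.50 in Treatment libraries (SD, n = 3). Cdk4, its partner kinase, was at 25.4 ± 2.16, 30.7 ± 6.08 and 27.1 ± 0.959. Pcna was at 23.9 ± 1.88, 24.2 ± 1.82 and 24.6 ± 0.953, so its group means differed by less than the spread between libraries. Tk1, the S phase thymidine kinase, was at 31.6 ± 5.22, 25.4 ± 3.38 and 32.5 ± 3.88. Exons of Cdk4 overlap those of Tspan31 on the opposite strand by 641 bases in GENCODE M21, and those of Tk1 overlap Afmid by 83 bases. Those of Ccnd3 overlap Bysl on the opposite strand by 361 bases. The sources used here do not say whether reads were counted by strand, so the level of such pairs is uncertain.

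**Figure D1:**
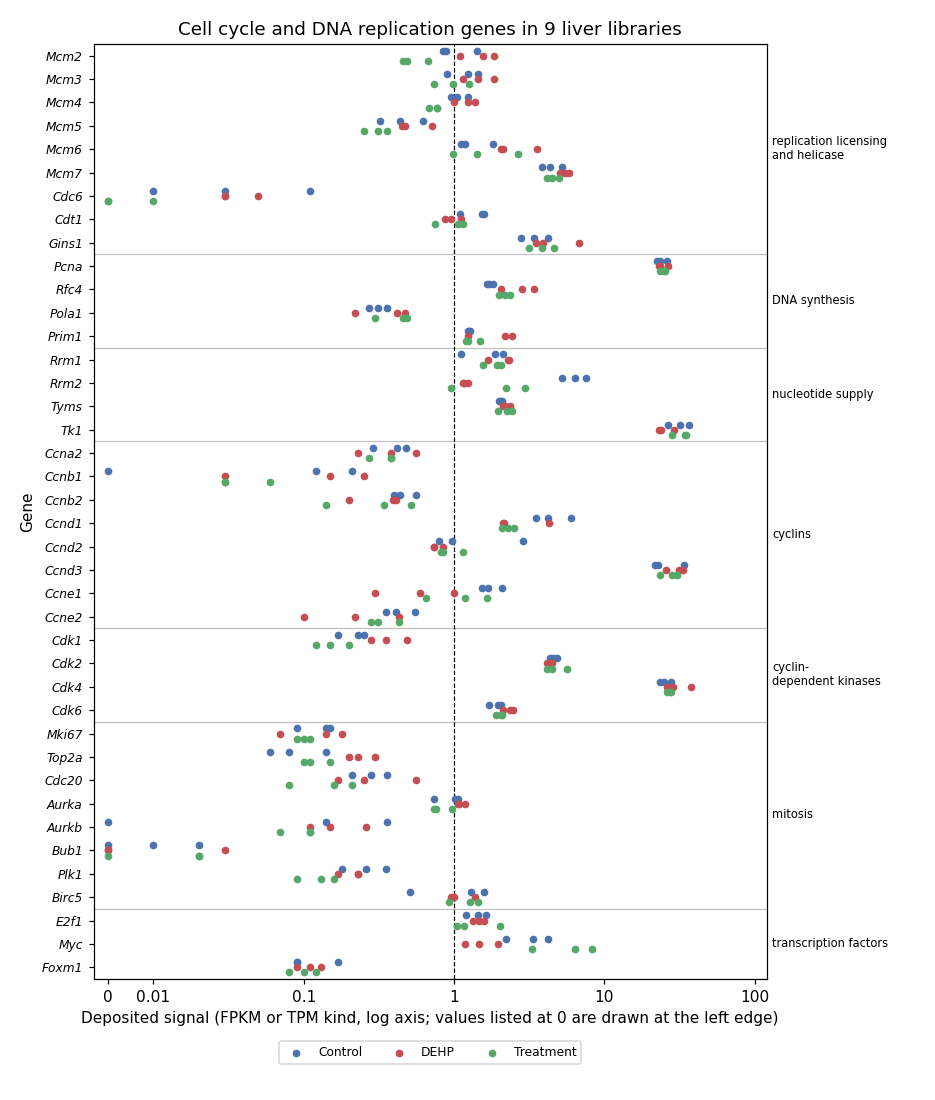
Deposited signal (log axis) of each of the 40 genes in each of the 9 libraries, coloured by group and ordered by role; the dashed line marks a signal of 1 and values listed at 0 are drawn at the left edge. Most mitotic genes sit left of the line in every group, and Ccnd3, Cdk4, Tk1 and Pcna lie above 20 in all libraries.

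Library totals ran from 789076 to 863300. The hepatocyte markers were high in every library, for example Alb between 38289 and 55555. Control replicates 1 and 2 stood apart by fat transcripts: Adipoq was at 33.7 and 61.0 there and listed at 0 in the other 7 libraries. Results are therefore also given with Control replicate 3 as the only control; the spread then comes from the DEHP and Treatment libraries, and the lone control is assumed to vary like them.

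The first comparison sets DEHP libraries against Control, phthalate in oil against water. Rrm2 fell, Ccne1 fell and Rfc4 rose, and no other member passed. With limma, 1 member was called higher and 2 lower among the 24 tested, 12.5% in all, against 25.5% of 10388 genes called. By direction the background was 21.6% higher and 3.91% lower. The median log2 fold change of the tested members was 0.10, beside 0.12 for all genes tested. Among the 24, 9 had an unadjusted p below 0.05, against 38.0% of all genes.

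Rrm2, the small subunit of ribonucleotide reductase that limits the supply of deoxynucleotides in S phase, had the largest difference of the set. It was at 7.53, 5.22 and 6.39 in Control replicates 1 to 3, and at 1.23, 1.15 and 1.17 in the DEHP libraries. Every DEHP library lay below every Control library, and the DEHP libraries were almost alike. The Control mean of 6.38 ± 1.16 was 5.39 times the DEHP mean of 1.18 ± 0.0416 (SD, n = 3). On the log2 scale Rrm2 fell by 1.75 (SE 0.23, limma adjusted p = 0.00111), and it was called in all 17 other settings (adjusted p between 1.33e-04 and 0.0331). In bulk liver, fewer cells of a type and less RNA per cell cannot be told apart.

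No other supplier of nucleotides passed. Rrm1, the large subunit of the same enzyme, had a log2 fold change of 0.21 (SE 0.16, adjusted p = 0.354). Tyms, which makes thymidylate, was at 2.00, 2.02 and 2.09 in Control and at 2.34, 2.19 and 2.12 in DEHP libraries. Those groups did not overlap, but the difference on the log2 scale was 0.08 (SE 0.09, adjusted p = 0.538). Tk1 had a log2 fold change of -0.30 (SE 0.14, adjusted p = 0.137); it was called lower after quantile normalization and after rescaling without the Mup genes.

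Among cyclins, Ccne1, which activates Cdk2 at the start of S phase, was at 1.67, 2.08 and 1.54 in Control and at 1.00, 0.59 and 0.30 in DEHP libraries. The groups did not overlap, and DEHP replicate 3 was the lowest. Ccne1 fell by 0.78 on the log2 scale (SE 0.20, adjusted p = 0.0160), a call that was lost without Control replicate 2, without DEHP replicate 3 and with the lone control. The adjusted p ran from 0.00925 to 0.203 over its 17 other settings. Ccnd1, the D-type cyclin that rises in regenerating liver, was at 3.50, 6.01 and 4.19 in Control and at 4.29, 2.13 and 2.15 in DEHP libraries. DEHP replicate 1 lay inside the Control range, and the log2 fold change of -0.55 (SE 0.22, adjusted p = 0.0964) did not pass; it was called without DEHP replicate 1 and after centring on the median gene. On the opposite strand, LTO1 shares 1100 exon bases with Ccnd1. LTO1 averaged 4.90 and had a log2 fold change of 0.17 (SE 0.13, limma adjusted p = 0.378). Its part in the Ccnd1 value was not tested. Ccnd2 was at 2.86 in Control replicate 2 and between 0.74 and 1.14 in the other 8 libraries. The mitotic and S phase cyclins Ccna2, Ccnb1, Ccnb2 and Ccne2 stayed at or below 0.56 in every library.

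Rfc4, a subunit of the clamp loader that places Pcna on DNA, was the member that rose. It was at 1.7, 1.82 and 1.66 in Control and at 2.06, 2.85 and 3.40 in DEHP libraries, with no overlap between the groups. The log2 fold change was 0.45 (SE 0.13, adjusted p = 0.0262). The call was lost in 8 of 17 other settings: quantile normalization, median centring, rescaling that left out the Mup genes, the lone control, and without Control replicate 1 or 3 or DEHP replicate 2 or 3. The log2 fold change stayed between 0.30 and 0.62 over all 17. Exons of Rfc4 overlap those of Eif4a2, a translation factor gene on the opposite strand, by 194 bases. Eif4a2 averaged 112.4 and rose by 0.72 (SE 0.09, adjusted p = 7.17e-04); its part in the Rfc4 value was not tested. Prim1, the catalytic primase subunit, was between 1.23 and 1.27 in Control and at 1.24, 2.18 and 2.44 in DEHP libraries (log2 fold change 0.37, SE 0.15, adjusted p = 0.0961); it was called without DEHP replicate 1.

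Of the MCM helicase subunits, 5 were tested and none passed. Mcm6 was at 1.11, 1.81 and 1.19 in Control and at 2.06, 2.12 and 3.54 in DEHP libraries, which did not overlap (log2 fold change 0.58, SE 0.24, adjusted p = 0.104). It was called when only the 6 libraries compared were fitted. Mcm7, the most abundant subunit, was at 4.36, 5.25 and 3.87 and at 5.83, 5.08 and 5.49 (log2 fold change 0.24, SE 0.11, adjusted p = 0.126), and was called without Control replicate 2. Exons of Mcm7 overlap those of Cops6 by 64 bases and those of Ap4m1 by 321 bases on the opposite strand. Cops6 averaged 107.2 and rose by 0.66 (SE 0.10, limma adjusted p = 0.00139). Ap4m1 averaged 4.61 and had a log2 fold change of 0.13 (SE 0.10, limma adjusted p = 0.368). Their part in the Mcm7 value was not tested. Mcm2, Mcm3 and Mcm4 had log2 fold changes between 0.08 and 0.28. All 5 tested subunits were above 0, as were 69.9% of all genes tested, and 4 of 5 were after median centring or after rescaling that left out the Mup genes. Cdt1, the loader of the ring, had a log2 fold change of -0.28 (SE 0.13, adjusted p = 0.128), and was called lower after centring on the median gene.

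Without a test, 6 of all 40 members had DEHP libraries wholly above Control, against 22.6% of the 16936 symbols above 0 in some library. They were Mcm6, Rfc4, Tyms, Cdk1, Cdk6 and Top2a. A further 3, Rrm2, Ccne1 and Myc, lay wholly below, against 6.39%. These counts moved with the scaling: with the Mup genes left out of it, 1 member, Top2a, lay above and 8 below, against 10.2% and 17.8%. After median centring 5 lay above and 8 below, against 14.6% and 13.3%. Rrm2, Ccne1 and Myc were below and Top2a above under each of these scalings. Top2a, the topoisomerase that untangles sister chromatids, was at 0.06, 0.14 and 0.08 in Control and at 0.30, 0.20 and 0.23 in DEHP libraries. Cdk1, the mitotic kinase, was at 0.25, 0.23 and 0.17 and at 0.35, 0.49 and 0.28. Both were far below a signal of 1 in all libraries. When no filter on low values was used, Top2a was also called higher.

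**Figure D2:**
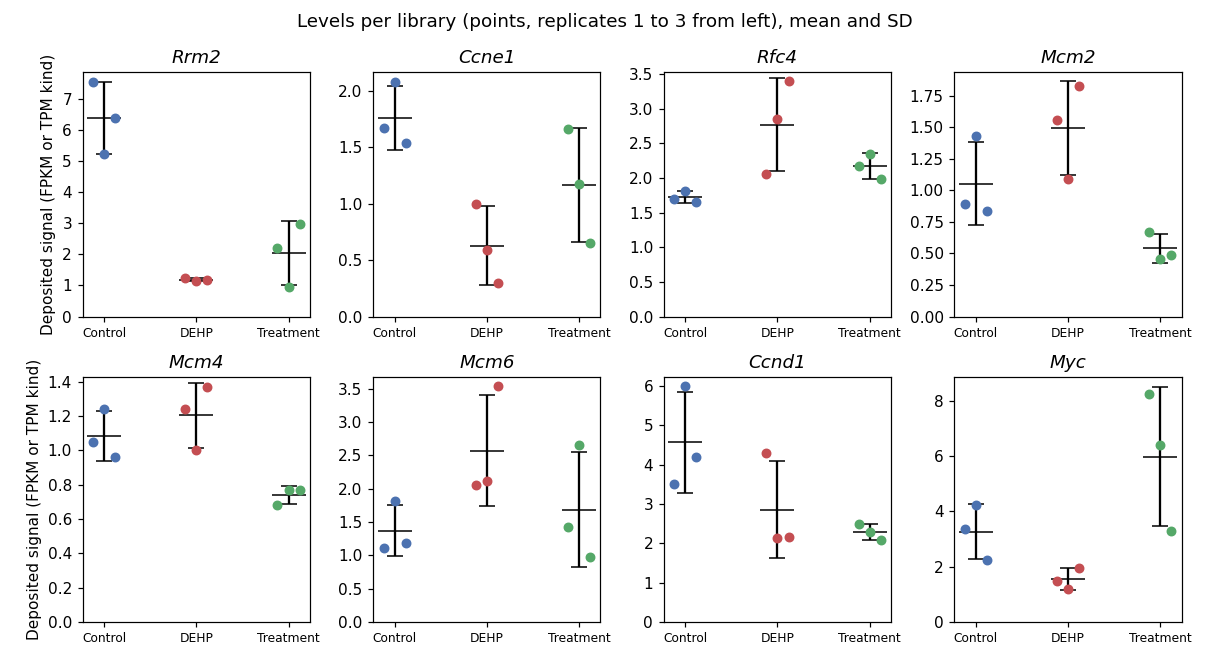
Deposited signal (linear axis from 0) of 8 genes per library, with points for replicates 1 to 3 from left to right in each group and a bar for the mean with its SD (n = 3). Rrm2 lies between 5.22 and 7.53 in Control and between 1.15 and 1.23 in DEHP libraries; Mcm2 and Mcm4 are lowest in Treatment and Myc is highest there.

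The second comparison sets Treatment against DEHP, with and without the polyphenols. No member passed, and limma called 0 of 10388 genes (0%), with or without trend and robust estimates. Without DEHP replicate 2 it called 86. Over all genes, 37 were called higher and 1 lower after rescaling without the Mup genes, and 5 higher after rescaling to equal totals. With no filter on low values 1 was called lower. No member was called under these scalings or without the filter. Among the 24 tested members, 5 had an unadjusted p below 0.05, against 14.7% of all genes: Mcm2, Mcm4, Prim1, Tk1 and Myc. The median log2 fold change of the tested members was -0.14, beside -0.01 for all genes tested. This comparison shares the DEHP libraries with the one before, so opposite signs between them arise without any effect.

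Mcm2, a subunit of the helicase ring, was at 1.56, 1.09 and 1.83 in DEHP and at 0.67, 0.46 and 0.49 in Treatment libraries. The groups did not overlap, and the Treatment libraries were also below all 3 Control libraries, which lay between 0.84 and 1.43. The log2 fold change was -0.69 (SE 0.15, adjusted p = 0.122), and it passed without DEHP replicate 2. Mcm2 reached 1 only in the DEHP libraries and Control replicate 2. Mcm4 was at 1.24, 1.00 and 1.37 in DEHP and at 0.68, 0.77 and 0.77 in Treatment libraries (log2 fold change -0.34, SE 0.11, adjusted p = 0.193). Mcm5, below the filter, was at 0.47, 0.45 and 0.71 and at 0.31, 0.36 and 0.25. Mcm7 was at 4.95, 4.51 and 4.16 in Treatment libraries, below the DEHP range (log2 fold change -0.22, SE 0.11, adjusted p = 0.372). Of the genes that overlap Mcm7, Cops6 had a log2 fold change of -0.31 here (SE 0.10, limma adjusted p = 0.194). That of Ap4m1 was 0.09 (SE 0.10, limma adjusted p = 0.714), and their part in the Mcm7 value was not tested. Mcm3 and Mcm6 overlapped between the groups, with log2 fold changes of -0.31 (SE 0.15, adjusted p = 0.367) and -0.43 (SE 0.24, adjusted p = 0.440). All 5 tested subunits were below 0 in this comparison in the reported fit, as were 5539 of the 10388 genes tested. The 5 were also below 0 in its 16 other settings, which reuse the same libraries and are not separate tests.

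Myc, a transcription factor that promotes growth and cell cycle entry, was at 1.47, 1.18 and 1.96 in DEHP and at 8.25, 6.41 and 3.29 in Treatment libraries. The groups did not overlap, and the Treatment libraries differed among themselves by more than the Control and DEHP ranges together. The Control libraries, at 3.35, 4.22 and 2.23, lay wholly above DEHP and overlapped Treatment. The log2 fold change was 1.40 (SE 0.29, adjusted p = 0.122) against DEHP, and it passed without Treatment replicate 3. DEHP against Control gave -0.73 (SE 0.29, adjusted p = 0.0930) and Treatment against Control 0.67 (SE 0.29, adjusted p = 0.164). The former was called when only the 6 libraries compared were fitted, and the latter without Treatment replicate 3. E2f1, which activates replication genes, was between 1.04 and 2.01 in all libraries.

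Without a test, 10 of all 40 members had Treatment libraries wholly below DEHP, against 7.63% of all symbols, and 1, Myc, lay wholly above, against 6.42%. The 10 were Mcm2, Mcm4, Mcm5, Mcm7, Cdc6, Cdk1, Cdk6, Top2a, Aurka and Plk1, of which 5 load or form the replication helicase. The totals of the Treatment libraries were lower, and 8 members lay wholly below after rescaling to equal totals, against 3.47%, and 6 with the Mup genes left out of the scaling, against 3.10%. The members wholly above were 3 and 5 under these scalings, against 11% and 15.8%; the 5 were Pcna, Tk1, Ccnd2, Cdk2 and Myc. Mcm2, Mcm4, Mcm5, Cdc6, Cdk1 and Top2a were below under both. After median centring 11 lay wholly below and 1 wholly above, against 9.19% and 6.16%. Rescaling these counts was chosen after seeing the data. Cdc6, at 0.05, 0.03 and 0.03 in DEHP and 0.01, 0 and 0 in Treatment libraries, rests on values near the rounding step. Plk1, a mitotic kinase, was at 0.17, 0.23 and 0.23 and at 0.09, 0.13 and 0.16. Top2a and Cdk1 were at 0.15, 0.11 and 0.10 and at 0.15, 0.20 and 0.12 in Treatment libraries. For the 3 members called under DEHP, the log2 fold changes were 0.42 for Rrm2 (SE 0.23), 0.40 for Ccne1 (SE 0.20) and -0.24 for Rfc4 (SE 0.13), with adjusted p of 0.440, 0.380 and 0.433.

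**Figure D3:**
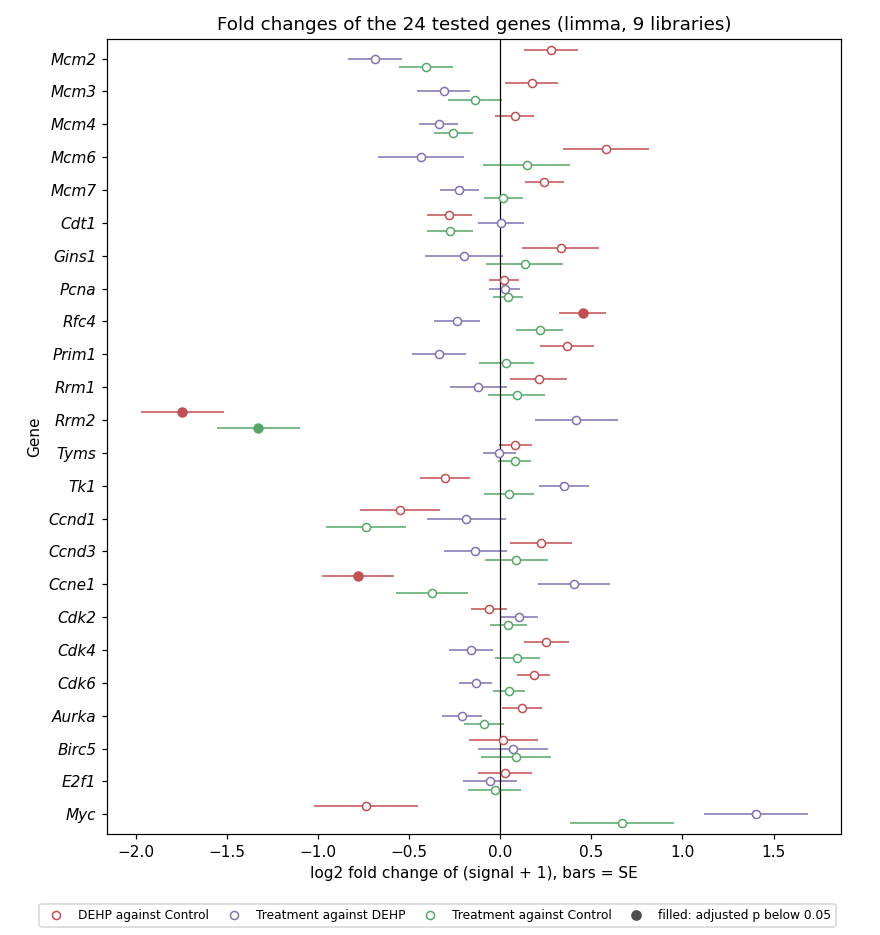
Log2 fold change of (signal + 1) with its SE from limma for the 24 tested genes in the 3 comparisons; filled points have an adjusted p below 0.05. The filled points are Rrm2 at -1.75 and -1.33, Ccne1 at -0.78 and Rfc4 at 0.45, and no point of Treatment against DEHP is filled.

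The third comparison sets Treatment against Control. Rrm2 fell, and no other member passed: 1 of 24 tested members was called, against 10.4% of 10388 genes (9.68% higher and 0.760% lower). Rrm2 was at 2.20, 0.95 and 2.97 in Treatment libraries, all below Control, and it fell by 1.33 on the log2 scale (SE 0.23, adjusted p = 0.0127). The call held in 16 of 17 other settings and was lost with the lone control (adjusted p = 0.123). Ccnd1 was at 2.49, 2.29 and 2.09 in Treatment libraries, below the lowest Control value of 3.50 (log2 fold change -0.74, SE 0.22, adjusted p = 0.0626); it passed when only the 6 libraries compared were fitted. LTO1, which overlaps Ccnd1, had a log2 fold change of 0.02 here (SE 0.13, limma adjusted p = 0.930), and its part was not tested. Mcm2 had a log2 fold change of -0.41 (SE 0.15, adjusted p = 0.104) and Mcm4 one of -0.26 (SE 0.11, adjusted p = 0.143). The median of the tested members was 0.04, beside 0.11 for all genes tested. Without a test, 1 of all 40 members, Rfc4, lay wholly above Control, against 20.8% of all symbols. A further 5, Mcm2, Mcm4, Rrm2, Ccnd1 and Plk1, lay wholly below, against 4.23%. The latter count was 5 after rescaling to equal totals, against 2.83%, and 7 with the Mup genes left out of the scaling, against 7.68%. It was 10 after median centring, against 10.4%.

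Other cell cycle genes were read from 5 further lists, whose counts are set beside those of all genes; no list was tested as a whole. Of 47 other DNA replication genes, 34 were tested, and 9 rose and 1 fell under DEHP, 29.4% in all beside 25.5% of all genes (21.6% higher and 3.91% lower). Rfc2 and Rfc3, further subunits of the clamp loader, rose by 0.45 (SE 0.08, adjusted p = 0.00246) and 0.58 (SE 0.13, adjusted p = 0.00916). Each call was lost in 1 of 17 other settings, Rfc2 with the lone control and Rfc3 after rescaling without the Mup genes. Rfc2 was at 12.3, 12.3 and 11.9 in Control, at 15.7, 16.9 and 18.5 in DEHP and at 16.1, 16.3 and 15.6 in Treatment libraries, so both phthalate groups lay above Control. Rfc1 and Rfc5 had log2 fold changes of 0.12 and 0.09 and did not pass. All 3 subunits of the single-strand binding protein RPA rose: Rpa1 by 0.34 (SE 0.09, adjusted p = 0.0212), Rpa2 by 0.39 (SE 0.12, adjusted p = 0.0406) and Rpa3 by 0.97 (SE 0.25, adjusted p = 0.0244). Of 17 other settings, the call was lost in 5 for Rpa1, 11 for Rpa2 and 5 for Rpa3. Dtymk, which makes dTDP from dTMP, rose by 0.43 (SE 0.09, adjusted p = 0.00539) and Dut, which clears dUTP, by 0.57 (SE 0.15, adjusted p = 0.0185). Orc5 and Pold2 also rose, with calls lost in 7 and 12 of 17 other settings; those of Dut and Dtymk were lost in 7 and 3. The gene that fell was Mcm10, an origin firing factor, which was at 24.6, 26.4 and 20.3 in Control, 9.49, 16.9 and 13.9 in DEHP and 21.9, 15.6 and 16.1 in Treatment libraries. It fell by 0.81 (SE 0.20, adjusted p = 0.0185), a call lost in 3 of 17 other settings, among them without Control replicate 1 and without Control replicate 2. The list median was 0.19, beside 0.12 for all genes, and the list's count ran from 2 to 11 over the other settings. In Treatment against Control 1 of the 34 (2.94%) was called, beside 10.4% of all genes. It was Rfc2, which rose by 0.37 (SE 0.08, adjusted p = 0.0189), a call lost in 8 of 17 other settings.

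Of 48 other mitosis genes, 12 were tested, and 3 rose and 1 fell under DEHP, beside 21.6% higher and 3.91% lower of all genes. Cks2, a subunit of Cdk complexes, was at 18.9, 18.6 and 23.7 in Control, 32.5, 34.3 and 35.2 in DEHP and 23.6, 28.7 and 25.2 in Treatment libraries. Cks2 rose by 0.72 (SE 0.10, adjusted p = 0.00128), a call lost in 1 of 17 other settings, the lone control. Pttg1, the separase inhibitor securin, rose by 0.51 (SE 0.09, adjusted p = 0.00376), and Spc25, a kinetochore protein, by 1.12 (SE 0.29, adjusted p = 0.0254). The Pttg1 call was lost in 2 of 17 other settings, quantile normalization and the lone control, and that of Spc25 in 6. Ccnf, the F-box protein cyclin F that marks Rrm2 protein for destruction in human cells, fell by 0.63 (SE 0.17, adjusted p = 0.0210). Under DEHP the Ccnf call was lost in 4 of 17 other settings. In Treatment against Control, Pttg1 rose by 0.38 (SE 0.09, adjusted p = 0.0328) and Ccnf fell by 0.78 (SE 0.17, adjusted p = 0.0226). These calls were lost in 11 and 4 of 17 other settings. The count under DEHP was between 0 and 5 over the other settings.

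Of 29 cell cycle inhibitors and brakes, 25 were tested, and 4 rose and 1 fell under DEHP, 20.0% in all beside 25.5% of all genes. Btg1, an anti-proliferative factor, was at 5.37, 8.68 and 7.40 in Control and at 16.03, 13.2 and 15.3 in DEHP libraries. It rose by 0.98 (SE 0.16, adjusted p = 0.00230), and Ccng2, a cyclin linked to cell cycle arrest, rose by 0.88 (SE 0.13, adjusted p = 0.00161). Both were called in all 17 other settings. Ccng1 and Lin37, a subunit of the DREAM repressor complex, rose by 0.43 (SE 0.11, adjusted p = 0.0204) and 0.50 (SE 0.14, adjusted p = 0.0224), calls lost in 6 and 9 of 17 other settings. Wee1, the kinase that holds Cdk1 inactive and is also an output of the circadian clock, was at 4.91, 5.93 and 6.09 in Control, 1.52, 3.36 and 0.93 in DEHP and 3.82, 4.84 and 4.34 in Treatment libraries. It fell by 1.26 under DEHP (SE 0.25, adjusted p = 0.00805), a call lost in 1 of 17 other settings. The Treatment libraries lay wholly between the other groups (0.94 against DEHP, SE 0.25, adjusted p = 0.162). Cdkn1a, which encodes the inhibitor p21, was at 24.7, 3.73 and 12.9 in DEHP libraries and between 0.76 and 5.28 elsewhere, and did not pass (log2 fold change 1.32, SE 0.74, adjusted p = 0.246). In Treatment against Control 1 of the 25 (4.0%) was called, beside 10.4% of all genes. It was Ccng2, which rose by 0.50 (SE 0.13, adjusted p = 0.0434), a call lost in 13 of 17 other settings.

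Of 33 mitogens, receptors and immediate early genes, 17 were tested, and 2 rose and 1 fell under DEHP, 17.6% in all beside 25.5% of all genes. Egfr, the receptor through which epidermal growth factor drives hepatocyte division, was at 71.7, 73.4 and 84.2 in Control, 22.8, 37.96 and 28.8 in DEHP and 57.7, 43.0 and 42.6 in Treatment libraries. It fell by 1.35 (SE 0.18, adjusted p = 0.00114) under DEHP and by 0.68 (SE 0.18, adjusted p = 0.0444) in Treatment against Control. The first call held in all 17 other settings and the second was lost in 11 of 17. Erbb3 rose by 0.42 (SE 0.10, adjusted p = 0.0155) and 0.57 (SE 0.10, adjusted p = 0.0131) in these comparisons, and Tnfrsf1a by 0.36 under DEHP (SE 0.10, adjusted p = 0.0225). Under DEHP these calls were lost in 6 and 7 of 17 other settings, and that of Erbb3 against Control in Treatment in 4. Of 14 other MYC and E2F family members, 11 were tested, and 1 (9.09%) was called under DEHP, beside 25.5% of all genes. It was Tfdp2, a partner of E2F factors, which fell by 0.42 (SE 0.12, adjusted p = 0.0251), a call lost in 6 of 17 other settings. In Treatment against DEHP no gene of these lists passed.

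**Figure D4:**
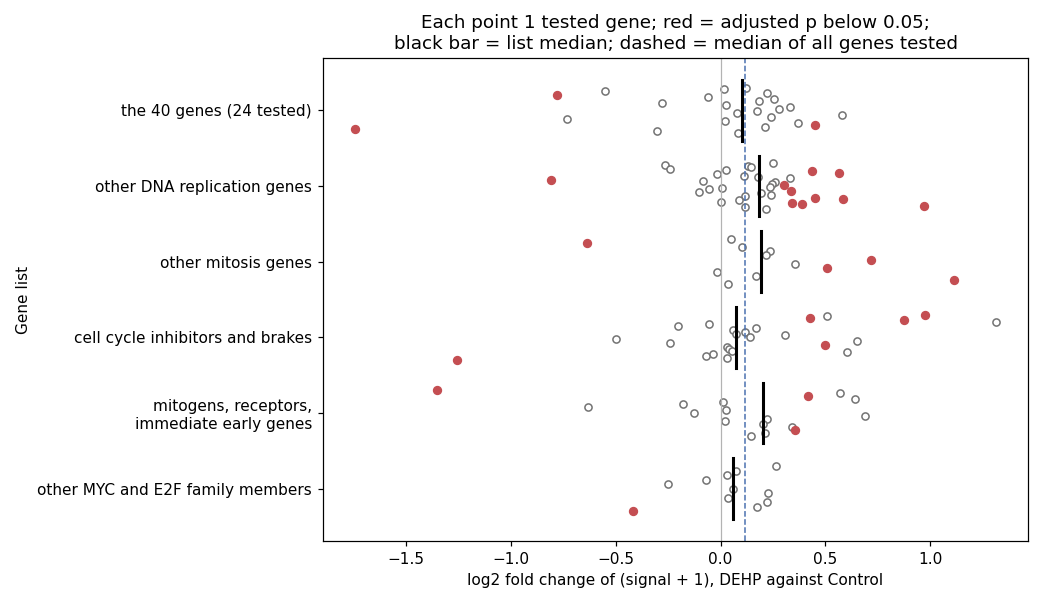
Log2 fold change of (signal + 1) in DEHP against Control for each tested gene of the set and of 5 other cell cycle lists; red points have an adjusted p below 0.05, black bars are list medians and the dashed line is the median of all genes tested. The medians lie between 0.06 and 0.20, beside 0.12 for all genes, and Rrm2 lies farthest left at -1.75.

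Within groups, single libraries carried many of the high values. DEHP replicate 1 was the highest of all 9 libraries for 12 members, DEHP replicate 3 for 8 and Control replicate 2 for 8, and each of the others for 5 or fewer. The same libraries led other lists. Control replicate 2 was highest for 16 and DEHP replicate 1 for 12 of 48 other mitosis genes. DEHP replicate 3 was highest for 13 and DEHP replicate 1 for 10 of 47 other DNA replication genes. No such count over all genes is given, so the counts are not read as particular to these lists. The median log2(value + 1) of all tested genes was also highest in DEHP replicate 1, at 3.16. It was 3.11 in DEHP replicate 3 and 3.07 in Control replicate 2, and reached 3.13 in Treatment replicate 3. Markers of other cells that can cycle differed between libraries. The summed level of 11 Kupffer cell and macrophage markers lay between 152 and 166 in Control libraries. It lay between 186 and 289 in DEHP and between 167 and 281 in Treatment libraries. All 11 had a log2 fold change above 0 under DEHP, as did 69.9% of all genes tested. Of the 11, 1 (9.09%), Cd5l, was called higher, against 21.6% of all genes. Without a test, 8 of the 11 (72.7%) had DEHP libraries wholly above Control, against 22.6% of all symbols. Their median log2 fold change under DEHP was 0.44, beside 0.12 for all genes tested. For 14 lymphocyte markers the sum lay between 4.71 and 6.62 in Control, 3.85 and 5.92 in DEHP and 3.59 and 4.30 in Treatment libraries, with Cd3e at or below 0.22 throughout and Cd8a, Cd8b1, Ms4a1 and Ncr1 listed at 0 in some libraries. Of these 14, only 2 reached the filter and were tested, and 1 of the 2, Nkg7, was called lower in Treatment against Control, beside 0.760% of all genes. The 10 endothelial markers summed to between 87.0 and 111 in Control, 94.1 and 124 in DEHP and 80.0 and 92.8 in Treatment libraries. In each of the 3 comparisons 0 of them were called, against 25.5%, 0% and 10.4% of all genes in turn. The part of these cells in the values above was not tested.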

How the data were processed

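Messenger RNA of 9 liver libraries was read from 1 deposited table of 18148 gene symbols. The deposited signal, with 2 decimals, was of the FPKM or TPM kind judging from the values, that is, scaled by the authors for depth and length; the sources used here do not say which. The submitters' processing notes name mm9, CASAVA 1.7 and limma, without roles. Absolute depth is unknown, so no counting interval is given.

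Values were tested as log2(value + 1), which understates changes of low genes. The 10388 genes at 1 or more in at least 3 libraries entered 1 limma model (version 3.58.1, R 4.3.3, trend and robust estimates) of all 9 libraries, tested first on simulated data. In each of 3 comparisons the p-values of all tested genes received Benjamini-Hochberg adjustment, and calls are those under 0.05. Members and lists were chosen with earlier results of these data known. Values are given per library, or in places as a range, for called members and for the 3 with the smallest p in each comparison. The highest member of each role is given per library or as a mean. Up to 3 called genes of each other list are named, and other genes were chosen after their values were seen. Alternatives were other scalings, filters, pseudocounts and variance models, fits of fewer libraries and a replicate block. The labels do not tie libraries to separate animals; p-values then measure only the spread between libraries, which may be technical.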

Additional observations from a re-analysis of the deposited data

How the results depend on the processing

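The count of called members under DEHP, 3 in the reported fit, was 5 with only the 6 libraries compared, 1 with Control replicate 3 as the lone control and between 1 and 5 without single libraries (1 without DEHP replicate 3, 5 without DEHP replicate 1). In Treatment against DEHP it was 0, and between 0 and 1 without single libraries: Mcm2 without DEHP replicate 2 and Myc without Treatment replicate 3. In Treatment against Control it was 1, then 2 with only the 6 libraries compared, 0 with the lone control and between 1 and 2 without single libraries (2 without Treatment replicate 3). The cause was not tested. Other scalings, filters, pseudocount and variance model left these counts within 1.5 times. Over all genes, the split under DEHP moved from 2248 higher and 406 lower to 922 and 833 after quantile normalization, 1271 and 736 after centring and 802 and 1000 once the Mup genes were left out of the scaling, where the median gene moved from 0.12 to -0.06.

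In Treatment against Control, the counts of the other replication, mitosis, brake and mitogen lists reached 0 in at least 1 setting each.

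With a replicate block the counts of called members were 3, 0 and 1. Deviations of same-numbered libraries correlated between -0.26 and 0.17, so the numbers are not taken to pair the libraries. Absolute depth is unknown, and values below about 0.1 lie within few rounding steps.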
